A study of Mus musculus with 1094 samples.

Results

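The genes described here are those of the Wnt pathway: the Wnt ligands, the Frizzled (Fzd) receptors and their LRP5 and LRP6 co-receptors, the secreted Dkk and Sfrp antagonists, the axins and beta-catenin, and the TCF/LEF transcription factors. They were chosen by gene symbol, and 46 of the 23078 genes in the deposited tables matched: 19 ligands, 10 receptors, 2 co-receptors, 8 secreted antagonists, 3 genes of the axin and beta-catenin group and 4 TCF/LEF genes. Single cells came from the dorsal cerebral cortex of C57Bl/6 mice labelled wild-type and female, each carrying a green fluorescent reporter by which the cells were sorted. Newborn neurons (NBN) and basal progenitors (BP) were both sorted as positive cells of the Tbr2::GFP line, in which the promoter of Tbr2 (Eomes), a factor of intermediate progenitors, drives the reporter; the labels do not say how one was told from the other. Neural stem cells (NSC) came from the Hes5::GFP line, driven by the promoter of a Notch target. NBN came from E16.5 and E18.5 embryos and from pups at P1 and P3 (212 cells in 4 libraries), BP at E12.5, E14.5, E16.5, E18.5 and P0 (344 cells in 5 libraries), and NSC at E10.5, E11.5, E13.5, E15.5, E17.5, E18.5, P0 and P1 (538 cells in 8 libraries). The cells of 1 population at 1 stage are treated as a library; the labels name no animals, so a stage and its capture cannot be told apart.

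In the canonical branch of the pathway a Wnt protein binds a Frizzled receptor together with LRP5 or LRP6, and this stops the complex that holds the axins from marking beta-catenin (Ctnnb1) for destruction. Beta-catenin then enters the nucleus and acts with TCF/LEF proteins, which can repress the same genes when it is absent. Sfrp proteins resemble the ligand-binding part of Frizzled and can bind Wnts, while Dkk1, Dkk2 and Dkk4 act on the LRP co-receptors. In the embryonic cortex Wnt signals from the medial edge, the cortical hem, and from the ventricular zone are known for their part in patterning, progenitor growth and neuron production.

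Values are TPM (each cell's transcripts scaled to a fixed total), which are also scaled for gene length, so levels of different genes can be set side by side. The cells' sequencing depth is unknown, and 3189 to 5764 genes per cell, as the median of a library, reached 1 TPM. Mean log2(TPM + 1) of a radial glia marker list was 3.11 to 5.42 in NBN libraries, 2.99 to 3.97 in BP libraries and 5.24 to 8.07 in NSC libraries, and that of a newborn neuron list was 4.74 to 8.99, 7.73 to 8.75 and 2.32 to 8.30 in the same order. In 173 of 212 NBN cells, 328 of 344 BP cells and 225 of 538 NSC cells the neuron list was the higher of this pair, which is called a neuron profile below; the remaining cells are called radial glia profile cells, whatever else they hold. The NSC E15.5 library stood apart, with 90.7% of its cells of neuron profile. So did the NBN P3 library, with 25.0%, in which 35 of 40 cells carried at least 3 markers of another cell type at 10 TPM or more (16 cells microglial, 13 meningeal, 5 endothelial). Counted over interneuron, Cajal-Retzius, choroid plexus and hem, meningeal, endothelial, mural and microglial markers, such cells numbered 52 in NBN, 19 in BP and 67 in NSC. Erythroid and oligodendrocyte lineage markers did not enter this count or the alternative that leaves such cells out. By the same limit, erythroid markers were found in 34 of 59 cells of NSC E11.5 and 18 of 88 cells of NSC E10.5, and in at most 2 cells of any other library. Oligodendrocyte lineage markers were found in 5, 3 and 4 cells of NSC E18.5, P0 and P1 and in 1 cell of NBN P1. Of all cells 23 had under 1000 genes.

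The Wnt pathway genes differed widely in level, as the heatmap of library means shows. Ctnnb1 stood highest, with a mean over the 17 libraries of 314 TPM, followed by Sfrp1 with 109 TPM and Tcf7l2 with 96.3 TPM. Wnt7b was the highest ligand (33.5 TPM) and Fzd3 the highest receptor (28.6 TPM). A gene was tested if its mean TPM over cells was 1 or more in at least 4 of 17 libraries; 14072 genes and 30 of the 46 Wnt pathway genes passed. The tested ones were 8 ligands, 7 receptors, 2 co-receptors, 6 antagonists, 3 of the axin and beta-catenin group and 4 TCF/LEF genes.

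**Figure D1:**
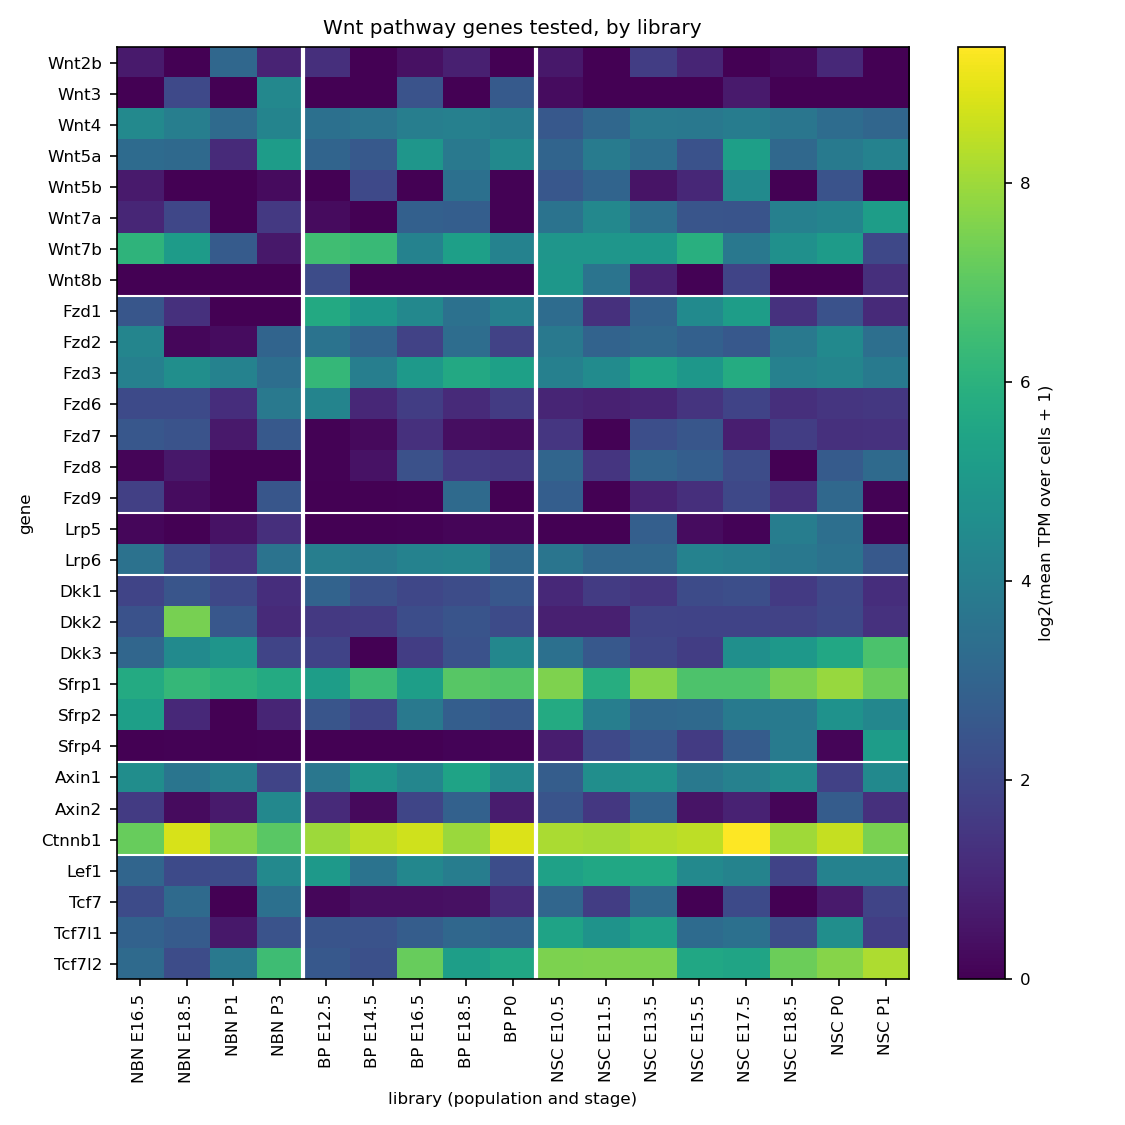
Level of the 30 tested Wnt pathway genes in each library, as log2 of the mean TPM over cells plus 1 (colour), with NBN, BP and NSC libraries from left to right, each by stage, and white lines between populations and gene families. Tcf7l2 (bottom row) is at 43.5 TPM or more in every NSC library and at 12.9 TPM or less in 3 of 4 NBN libraries.

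Of the 30 tested Wnt pathway genes, 1 differed between populations past the threshold. Tcf7l2, a TCF/LEF factor that is a main nuclear partner of beta-catenin, lies on chromosome 19 from 55741820 to 55933654 on the forward strand (GRCm38, GENCODE M21). Its mean level was 8.52, 3.53, 12.9 and 86.2 TPM in the NBN libraries, given here and below by rising age. BP libraries had 4.99, 3.93, 144, 36.6 and 46.7 TPM at E12.5, E14.5, E16.5, E18.5 and P0. NSC libraries had 43.5 TPM at the lowest (E17.5), a median of 183 TPM and 297 TPM at the highest (P1). The NBN libraries before P3 all lay below every NSC library, whereas NBN P3, BP E16.5 and BP P0 lay within the NSC range. The RefSeq table of promoter windows (GRCm38.p6) holds a pair of starts of this gene; the 250 bases before each are printed because Tcf7l2 is the gene on which the comparisons turn, with capitals for the letters of a TCF/LEF motif.
Tcf7l2, first start, chr19:55741560-55741809, forward strand: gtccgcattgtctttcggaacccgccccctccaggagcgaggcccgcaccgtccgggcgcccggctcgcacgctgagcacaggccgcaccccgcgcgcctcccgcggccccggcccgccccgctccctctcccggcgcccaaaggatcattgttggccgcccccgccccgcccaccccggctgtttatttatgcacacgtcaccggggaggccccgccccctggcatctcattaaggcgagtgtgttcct
Tcf7l2, inner start, chr19:55895071-55895320, forward strand: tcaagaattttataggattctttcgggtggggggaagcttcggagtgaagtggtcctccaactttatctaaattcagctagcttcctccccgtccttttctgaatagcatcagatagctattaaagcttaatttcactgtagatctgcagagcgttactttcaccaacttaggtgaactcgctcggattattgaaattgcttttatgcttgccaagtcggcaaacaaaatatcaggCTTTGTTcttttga
The search was for 4 motifs on both strands: CTTTGAA is the first, and in the others its last pair of letters is replaced by A and T, by T and A, or by a pair of T; none can overlap another on the same strand. The window of the inner start holds CTTTGTT from 14 bases before the start, and that of the first start holds none of these letters. Of all 32851 windows of this length, 14.8% hold at least 1 of them. Among the Wnt pathway genes 31 of 46 had a window, and 6 of their 40 windows held a motif, including 1 of Fzd7 and 1 of Dkk1; a match is a description of the letters only.

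Between NBN and NSC, the difference in Tcf7l2 at equal age was −3.86 ± 0.90 log2 units (SE; limma with Benjamini-Hochberg adjustment over all genes, adjusted p = 0.0377; n = 4 NBN and 8 NSC libraries). That fit holds a common age slope for the populations. Fitted by population, the slopes of Tcf7l2 were 0.56 in NBN, 0.51 in BP and 0.003 log2 units per day in NSC. On the log2(TPM + 1) scale NBN libraries averaged 3.92 ± 1.81 (SD, n = 4), BP libraries 4.57 ± 2.08 (SD, n = 5) and NSC libraries 7.10 ± 1.01 (SD, n = 8). In this comparison 233 of 14072 genes, 1.66%, passed (1.26% lower in NBN), and 1 of 30 Wnt pathway genes did, so the count does not stand out from that share. The median difference was −0.70 over the 30 genes and −0.10 over all genes. The call was lost without any 1 of NBN E16.5, NBN E18.5, NBN P1, BP P0, NSC E13.5, NSC E18.5, NSC P0 and NSC P1, with adjusted p from 0.0519 to 0.120 (limma), and with the mean of log2 values over cells in place of the log2 of the mean (−1.75 ± 0.73, adjusted p = 0.283). With cells that carried markers of another type left out, which left 5 cells at a mean of 44.0 TPM in NBN P3, the difference was −4.29 ± 0.89. It was −3.83 without NSC E11.5 and −3.87 without NSC E10.5, the libraries with erythroid markers, and passed in both (limma, adjusted p = 0.0474 and 0.0362). In these pooled values, fewer cells with a transcript and less of it per cell cannot be told apart, so the cells were examined next.

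Cell by cell, Tcf7l2 was found at 1 TPM or more in nearly all cells, and the share at 10 TPM or more varied widely between libraries of each population. Of NBN cells 92.5% reached 1 TPM, of BP cells 93.3% and of NSC cells 97.4%. At 10 TPM these shares were 24.1%, 24.7% and 55.2%. By library, 7.14% (NBN E18.5) to 57.5% (NBN P3) of NBN cells reached 10 TPM, 2.22% (BP E14.5) to 66.3% (BP E16.5) of BP cells, and 18.6% (NSC E15.5) to 93.2% (NSC E10.5) of NSC cells. The median cell stood at 2.69 to 8.41 TPM in NBN libraries before P3, at 1.97 to 4.74 TPM in BP libraries other than E16.5, and at 3.29 TPM (E15.5) to 137 TPM (E10.5) in NSC libraries. BP E16.5 stood apart from the other BP libraries, with a median of 18.4 TPM. In that library 1 cell with 140 genes held 6753 TPM, 52.9% of the summed level, and the mean without it was 68.4 TPM. In NSC E13.5, 1 cell with 119 genes held 8429 TPM, and the mean without it was 59.4 TPM.

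**Figure D2:**
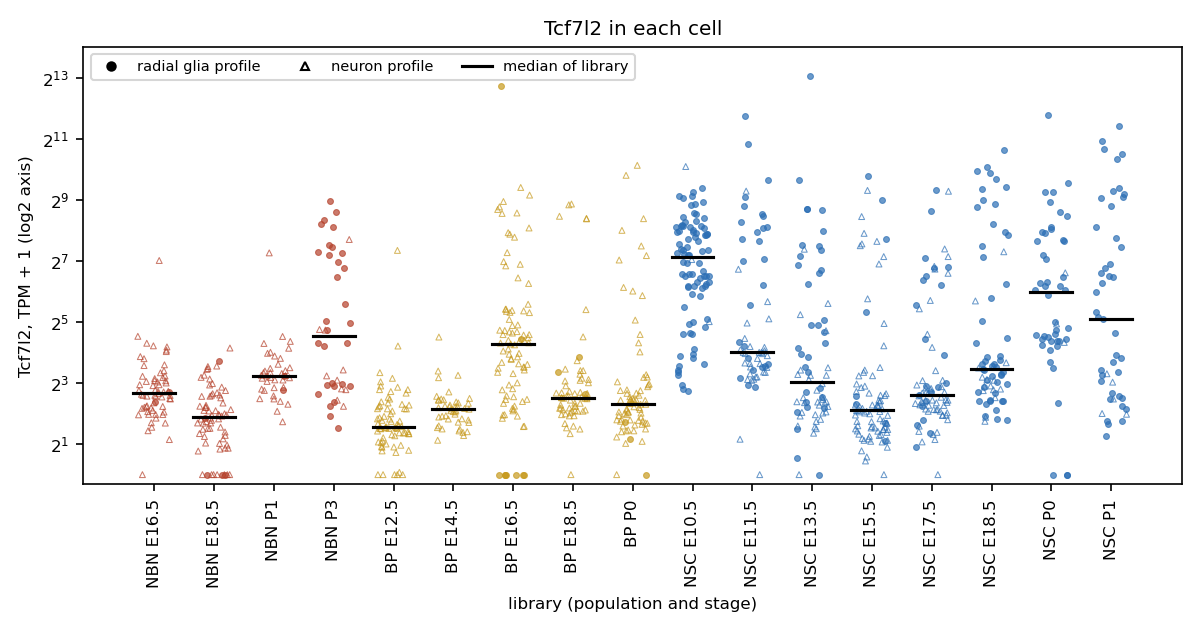
Tcf7l2 in each of the 1094 cells (TPM + 1 on a log2 axis) by library, with NBN in red, BP in yellow and NSC in blue, filled circles for radial glia profile cells, open triangles for neuron profile cells and a black bar at the library median. Most cells form a low band below 10 TPM, and the high cells of the NSC libraries are mostly of radial glia profile.

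Within the NSC libraries themselves, Tcf7l2 followed the profile of the cell. In the 6 NSC libraries with at least 5 cells of each profile, radial glia profile cells averaged 79.9 to 361 TPM of Tcf7l2 (median of the libraries 269 TPM), against 5.30 to 35.9 TPM in neuron profile cells (median 23.8 TPM). The radial glia profile cells were higher in 6 of 6 libraries, and the ranges did not overlap. Some of these groups were small, with 5 neuron profile cells in NSC P1. With cells carrying markers of another type left out, 5 libraries still had enough cells of each profile, and Tcf7l2 was higher in radial glia profile cells in each. At E13.5 the radial glia profile mean was 353 TPM, and 112 TPM without cells under 1000 genes, against 12.1 TPM in neuron profile cells. The share of cells at 10 TPM was 50.0% to 85.2% in radial glia profile cells of these libraries, against 0% to 68.8% in neuron profile cells. At E11.5 both were high, 85.2% against 68.8%, with median cells at 132 TPM and 13.4 TPM.

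Tcf7l1, the TCF factor that acts mostly as a repressor, was also higher in radial glia profile cells in 6 of 6 NSC libraries. Its means there were 2.59 to 71.1 TPM, against 0.54 to 11.3 TPM in neuron profile cells. Sfrp1 (94.2 to 455 TPM against 24.0 to 139 TPM), Lef1 (3.04 to 71.7 TPM against 0.40 to 46.6 TPM), Fzd1, Fzd6 and Fzd7 had the same direction in all 6, and their ranges overlapped. Only Dkk2, at 0.63 to 2.48 TPM in radial glia profile cells and 0.89 to 4.67 TPM in neuron profile cells, was lower in all 6. Together, 7 of 30 Wnt pathway genes were higher in every library, against 509 of 14049 tested genes outside the pair of profile lists, 3.62%; 1 of 30 was lower, against 2.48% of those genes. Cells are not replicates and the libraries are few, so this is a description with no test. The count was 4 of 30 (all genes 2.73%) with the highest cell of each gene left out, and 2 of 30 (all genes 3.66%) by the share of cells at 10 TPM. It rose to 9 of 30 with at least 10 cells of each profile, where 4 libraries remained and the share over all genes rose to 10.4%. Only Tcf7l2 and Tcf7l1 were among the genes counted under each of the 6 alternatives.

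**Figure D3:**
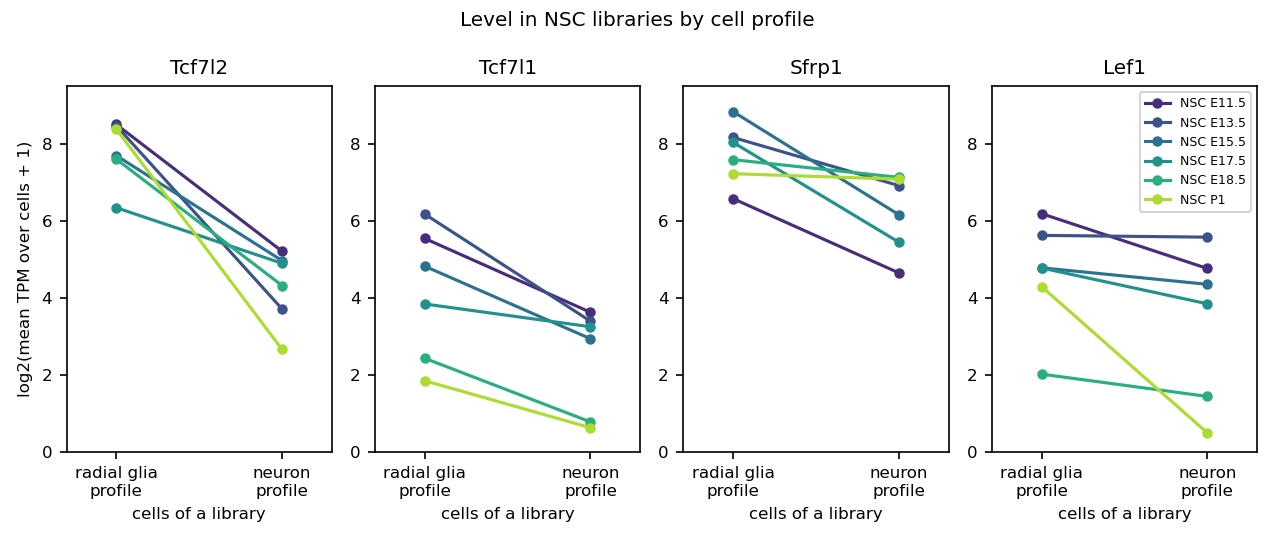
Level of 4 genes in the 6 NSC libraries that hold at least 5 cells of each profile, as log2 of the mean TPM over cells plus 1, with radial glia profile cells on the left and neuron profile cells on the right of each line. All lines of Tcf7l2 and Tcf7l1 slope down, while at least 1 line of Lef1 and of Sfrp1 is nearly level.

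Across all libraries Tcf7l1 stood at 6.69, 5.41, 0.51 and 4.32 TPM in NBN, at 4.34, 4.28, 5.77, 7.67 and 6.94 TPM in BP, and at 2.37 (P1), a median of 16.9 and 41.9 TPM (E10.5) in NSC. The groups overlapped, and the NSC libraries up to E13.5 were all above every NBN and BP library. Its slope on age in NSC was −0.29 ± 0.10 log2 units per day and did not pass (adjusted p = 0.184); it passed with the mean of log2 values over cells. Gm15401, on the opposite strand, shares exon sequence with Tcf7l1, and the labels do not say whether strand was kept. Tcf7l1 was detected at 1 TPM or more in 73.3% of all cells, but in 13.6% at 10 TPM; in NBN the shares at 1 TPM were 98.4% at E16.5 and 10.3% at P1.

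Lef1, a TCF/LEF factor that usually activates, had 7.32, 3.34, 3.36 and 20.0 TPM in NBN libraries, 32.8, 10.8, 18.9, 14.8 and 3.59 TPM in BP libraries, and 2.72 (E18.5) to 47.4 TPM (E13.5) with a median of 18.6 TPM in NSC libraries. The highest levels were those of the 3 earliest NSC libraries (40.2, 47.0 and 47.4 TPM). The groups overlapped, and no Lef1 comparison passed; its slope on age in BP was −0.28 ± 0.17 per day, and −0.13 without BP P0. At 10 TPM it was found in 8.49% of NBN cells, 14.2% of BP cells and 20.1% of NSC cells, and in 43.2% of NSC E10.5 cells. Tcf7, the remaining TCF/LEF gene, was found at 10 TPM in 29 of 1094 cells. Of 108 NSC cells with Lef1 at 10 TPM or more 67.6% also had Tcf7l2 at that level, against 52.1% of NSC cells without Lef1; of 101 NSC cells with Tcf7l1 83.2% had Tcf7l2, against 48.7% of those without. These co-detection shares are counts of cells that share libraries and stages, and carry no test. Gm43352 shares exon sequence with Lef1 on the opposite strand.

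Beta-catenin and the axins showed no difference that passed. Ctnnb1 had 144.6, 448, 195 and 124.8 TPM in NBN libraries, 256, 348, 414, 250 and 472 TPM in BP libraries, and 175.4 (P1) to 658 TPM (E17.5) with a median of 305 TPM in NSC libraries. These ranges overlapped throughout, and Ctnnb1 reached 10 TPM in 64.6% of NBN, 75.9% of BP and 76.2% of NSC cells. Ulk4, on the opposite strand, and Mir7090 share exon sequence with it. Axin1, a scaffold of the destruction complex, had 23.0, 11.4, 15.7 and 2.83 TPM in NBN libraries, 12.2, 27.9, 18.51, 41.9 and 20.1 TPM in BP libraries, and 2.52 (P0) to 25.8 TPM (E13.5) with a median of 18.53 TPM in NSC libraries. Its slope on age in NBN was −0.38 ± 0.21 per day and did not pass, and it was −0.13 without NBN P3. Axin2, which is itself a target of the pathway and often read as its output, was low: it reached 1 TPM in 10 of 17 libraries and 10 TPM in 44 cells. Its highest library was NBN P3 (19.7 TPM), where 72.9% of the summed level came from 1 cell and the 5 cells without markers of another type had none. Of 26 NSC cells with Axin2 at 10 TPM, 19.2% also had Lef1, against 20.1% of NSC cells without Axin2. Gm11670 shares exon sequence with Axin2 on the opposite strand.

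Among the ligands, Wnt7b was the most abundant and Wnt7a the one with the largest difference between populations, though none passed. Wnt7b had 67.3, 34.4, 5.39 and 0.53 TPM in NBN libraries. BP libraries had 88.6, 80.1, 16.6, 37.7 and 16.6 TPM, and NSC libraries 3.10 (P1) to 58.8 TPM (E15.5) with a median of 29.3 TPM. The 4 NBN values run from high to low by age, with a slope of −0.95 ± 0.20 log2 units per day (limma, adjusted p = 0.0517), just short of the threshold. Between BP stages the slope was −0.32 ± 0.16 per day (adjusted p = 1.0), and it was 0.08 per day from E16.5 on. The NBN slope passed under 9 of 30 alternatives, among them cells with markers of another type left out (limma, adjusted p = 0.0117). That setting leaves 5 cells in NBN P3, with Wnt7b at 0 TPM, so its end point rests on few cells. Without NBN P3 the slope had an adjusted p of 0.310 at −0.85 per day. Only 2.50% of NBN P3 cells held Wnt7b at 10 TPM, and 25.0% of its cells were of neuron profile, against 92.9% to 96.8% in the other NBN libraries; the part of this in the slope was not tested. In the NBN slopes 63 of 14072 genes, 0.448%, passed (0.334% with a negative slope), and 0 of 30 Wnt pathway genes did (4 of 30 at an unadjusted p under 0.05, against 19.7% of all genes). AU022754 shares exon sequence with Wnt7b on the opposite strand.

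Wnt7a, the close relative of Wnt7b, is described though it was chosen after its values were seen. Its means were 1.00, 3.01, 0.01 and 1.97 TPM in NBN libraries, 0.21, 0, 6.24, 6.04 and 0.03 TPM in BP libraries, and 4.44 (E17.5) to 36.3 TPM (P1) with a median of 13.46 TPM in NSC libraries. Every NBN library lay below every NSC library, and 3 of 5 BP libraries did. The difference was −2.87 ± 0.76 between NBN and NSC (limma, adjusted p = 0.0597) and −2.56 ± 0.64 between BP and NSC (adjusted p = 0.0890). With neuron profile cells left out of the NSC libraries both passed. That split removes NSC cells only, so the pass is no separate support. Few cells carried Wnt7a: at 10 TPM, 4 of 212 NBN cells, 4 of 344 BP cells and 39 of 538 NSC cells (1.89%, 1.16% and 7.25%). In NSC E11.5, 1 cell held 99.5% of it, and the mean without that cell was 0.11 TPM. Wnt7a and Wnt7b were seldom found in the same cell. Of 47 cells with Wnt7a at 10 TPM 3 had Wnt7b at that level (6.38%), against 18.6% of the cells without Wnt7a. In NSC the shares were 5.13% and 16.8%. At 1 TPM 7 of 61 cells with Wnt7a held both. These shares pool cells of libraries that differ in both genes, and the part of stage and cell profile in them was not tested. By profile, in the 6 NSC libraries with both, 0% to 50.0% of radial glia profile cells held Wnt7a at 10 TPM, against 0% to 3.85% of neuron profile cells, and the first share was the higher in 5 libraries, with E11.5 the exception. For Wnt7b these shares were 4.55% to 14.7% against 0% to 34.6%, lower in radial glia profile cells in 4 libraries and higher at E18.5 and P1.

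**Figure D4:**
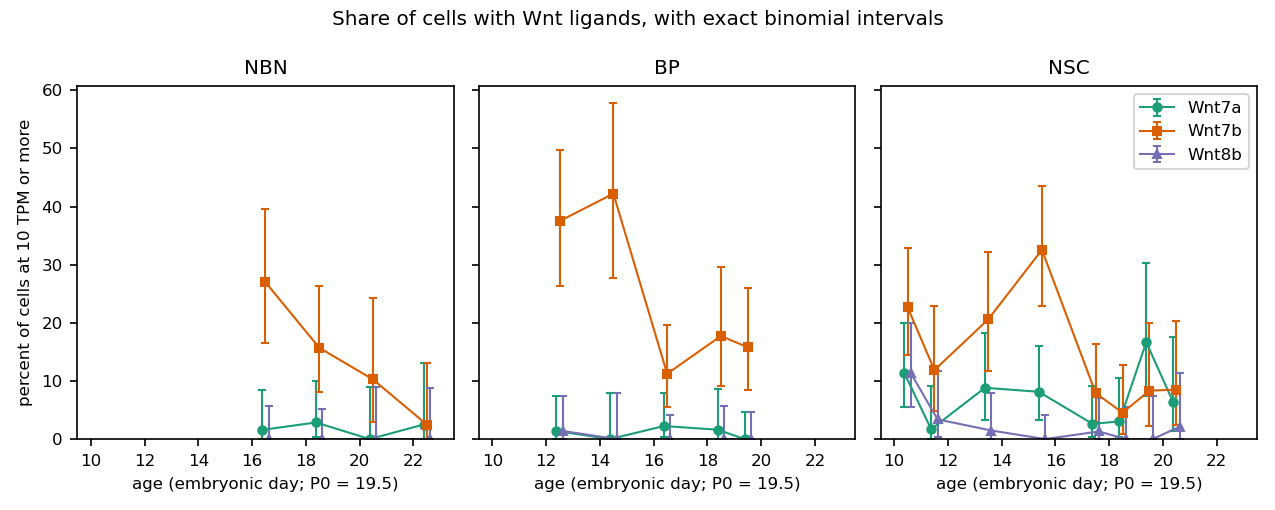
Percent of cells with Wnt7a, Wnt7b or Wnt8b at 10 TPM or more in each library against age in days, with NBN, BP and NSC panels from left to right, exact binomial 95% intervals and points shifted slightly sideways; lines join the libraries of a population. Wnt7b is at 42.2% in BP E14.5 and 2.50% in NBN P3, and Wnt8b is above 0 mainly in NSC E10.5 (11.4%).

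Wnt8b, a ligand of the early medial cortex, was also chosen after its values were seen. It was listed at 0 in all 4 NBN libraries and in 3 of 5 BP libraries, and 1 BP E12.5 cell held nearly all of the rest. In NSC libraries it had 30.3 TPM at E10.5 and 11.1 TPM at E11.5, and 0 to 2.75 TPM later. Its slope on age in NSC was −0.37 ± 0.10 per day (limma, adjusted p = 0.0904), and −0.23 without NSC E10.5 (adjusted p = 0.483). Of the 24 cells in which it was above 0, 16 reached 10 TPM, 10 of them in NSC E10.5. In the NSC slopes 192 of 14072 genes, 1.36%, passed (1.12% with a positive slope), and 0 of 30 Wnt pathway genes did (4 at an unadjusted p under 0.05, against 12.8% of all genes).

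Wnt4 and Wnt5a were found in every library. Wnt4, a ligand of both canonical and other branches, had 20.1, 14.9, 8.53 and 17.8 TPM in NBN libraries, 9.90, 11.0, 15.1, 15.8 and 14.1 TPM in BP libraries, and 5.01 (E10.5) to 14.3 TPM (E17.5) with a median of 10.3 TPM in NSC libraries. It was unusual in its spread over cells: 96.8% of all cells held it at 1 TPM or more, with a median of 8.94 TPM and quartiles of 4.61 and 15.1 TPM. Of 23078 genes, 667 (2.89%) reached 1 TPM in at least 90% of cells, and the 2 Wnt pathway genes among them were Wnt4 and Tcf7l2. Wnt5a, known for the planar polarity branch, had 8.68, 8.09, 1.15 and 35.6 TPM in NBN libraries. It had 7.11, 5.10, 28.9, 12.9 and 20.9 TPM in BP libraries. In NSC libraries it had 4.19 (E15.5) to 38.2 TPM (E17.5), with a median of 11.1 TPM. Its highest cell made up 25.8% to 79.9% of the level of each library. Gm2670 shares exon sequence with Wnt5a on the opposite strand.

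The other tested ligands were rare. Wnt2b, Wnt3 and Wnt5b reached 10 TPM in 14, 10 and 15 of 1094 cells. Of the ligands 11 were below the filter; Wnt1 and Wnt2 had no cell above 0, which allows a share of up to 0.274% of cells by counting error alone. Wnt3a, Wnt9b, Wnt10a, Wnt10b and Wnt11 were above 0 in 1 cell each, Wnt6 in 4 and Wnt9a in 5. Wnt8a reached a mean of 1 TPM in BP E16.5 (3.76 TPM), Wnt16 in NSC E13.5 (3.14 TPM) and Wnt6 in NBN P3 (1.505 TPM). The median cell of each population had 1 ligand at 10 TPM or more, and 42.5% of NBN cells, 30.8% of BP cells and 40.7% of NSC cells had none. These counts lean on Wnt4, whose median over all cells, 8.94 TPM, lies near that limit. Wnt4 reached 10 TPM in 44.9% of all cells, against 18.1% for Wnt7b.

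Of the receptors, Fzd1 and Fzd3 were the most abundant. Fzd1 had 4.73, 1.47, 0.01 and 0.01 TPM in NBN libraries, 50.1, 30.4, 19.47, 10.4 and 15.4 TPM in BP libraries, and 1.19 (P1) to 36.0 TPM (E17.5) with a median of 5.51 TPM in NSC libraries. All 4 NBN libraries lay below all 5 BP libraries. The difference between NBN and BP was −3.03 ± 0.85 log2 units and did not pass (limma, adjusted p = 0.273). In BP E12.5, 84.0% of it came from 1 cell, and the mean without that cell was 8.14 TPM. At 10 TPM Fzd1 was found in 6 of 212 NBN cells, 47 of 344 BP cells and 42 of 538 NSC cells, which is 2.83%, 13.7% and 7.81%. Its slopes on age, −0.44 ± 0.26 per day in NBN and −0.27 ± 0.21 in BP, did not pass. Between NBN and BP 2 of 14072 genes, 0.0142%, passed, and 0 of 30 Wnt pathway genes did (3 at an unadjusted p under 0.05, against 9.12% of all genes).

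Fzd3, a receptor known for its part in axon guidance, had 16.0, 23.7, 16.8 and 9.43 TPM in NBN libraries, 73.9, 15.3, 31.4, 49.9 and 38.6 TPM in BP libraries, and 13.1 (P1) to 53.1 TPM (E17.5) with a median of 20.0 TPM in NSC libraries. It was lower in radial glia profile than in neuron profile cells in 5 of 6 NSC libraries, with E17.5 the exception. Wnt7b and Fzd3 were found together at 10 TPM in 54 cells, which is 27.3% of the 198 cells with Wnt7b, against Fzd3 in 23.1% of cells without it. The remaining tested receptors were lower: Fzd2, Fzd6, Fzd7, Fzd8 and Fzd9 had means over libraries of 1.95 to 8.24 TPM. Fzd2 reached 1 TPM in 59.1% of NSC E10.5 cells, its highest share. Fzd8, chosen after its values were seen, was found at 10 TPM in 1 of 212 NBN, 6 of 344 BP and 33 of 538 NSC cells, and differed by −2.22 ± 0.65 between NBN and NSC (limma, adjusted p = 0.0850). Fzd4, Fzd5 and Fzd10 were below the filter and reached a mean of 1 TPM in 1, 2 and 2 libraries. Receptors at 10 TPM were absent from 67.5% of NBN cells, 54.1% of BP cells and 50.9% of NSC cells.

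Lrp6, one of the co-receptors, had 10.6, 3.14, 1.81 and 10.8 TPM in NBN libraries, 15.2, 13.9, 16.6, 17.9 and 8.19 TPM in BP libraries, and 5.10 (P1) to 16.8 TPM (E15.5) with a median of 11.0 TPM in NSC libraries. The ranges overlapped and no comparison passed. Lrp5 was rare, at 10 TPM in 11 cells, and reached a mean of 1 TPM in 4 libraries. Its highest was NSC E18.5, at 14.9 TPM.

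Sfrp1 was by far the most abundant antagonist, and its median level over libraries was highest in NSC, though no comparison passed. It had 51.7, 73.9, 64.1 and 52.3 TPM in NBN libraries, 35.7, 83.3, 37.2, 121 and 112 TPM in BP libraries, and 56.1 (E11.5) to 243 TPM (P0) with a median of 163 TPM in NSC libraries. Apart from E11.5, every NSC library lay above every NBN library. At 10 TPM Sfrp1 was found in 27.8% of NBN cells, 32.8% of BP cells and 49.4% of NSC cells. It passed in no population comparison with all cells. It passed in both comparisons against NSC when neuron profile cells were left out of the NSC libraries. That split removes NSC cells only, and Sfrp1 was lower in neuron profile cells in all 6 NSC libraries with both profiles. The pass is therefore no separate support. In NBN P3 the 5 cells without markers of another type had a mean of 0.01 TPM.

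Sfrp2 had 38.2, 1.10, 0.02 and 0.94 TPM in NBN libraries, 4.58, 2.75, 12.7, 5.95 and 4.92 TPM in BP libraries, and 7.63 (E13.5) to 51.8 TPM (E10.5) with a median of 14.1 TPM in NSC libraries. At NSC E10.5 it was in 45.5% of cells at 10 TPM, against 6.58% to 27.1% in the later NSC libraries. In NBN E16.5, 82.3% of the level came from 1 cell, and 6.87 TPM remained without it. Its slope on age in NBN was −0.70 ± 0.24 per day and did not pass (limma, adjusted p = 0.138). It was −0.03 without NBN E16.5 and −1.32 without NBN P3. Sfrp1 was found in 64.7% of the 102 NSC cells with Sfrp2 at 10 TPM. Gm26771 shares exon sequence with Sfrp2 on the opposite strand.

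Dkk3, a divergent Dkk that is not known to act on LRP6 as Dkk1 does, was highest in the postnatal stem cells. It had 7.46, 21.1, 28.5 and 2.80 TPM in NBN libraries, 2.73, 0, 2.24, 4.12 and 19.2 TPM in BP libraries, and 9.84, 4.96, 2.99, 2.23, 24.4, 30.6, 47.7 and 104 TPM in NSC libraries from E10.5 to P1. The NSC libraries from E17.5 on all lay above the earlier ones. At E17.5 and E18.5, however, 1 cell held 93.2% and 95.1% of the level, while at P0 and P1 31.2% and 21.3% of cells reached 10 TPM, against 2.94% to 6.82% before. The slope in NSC was 0.38 ± 0.13 per day and did not pass (limma, adjusted p = 0.178); it passed with the mean of log2 values over cells (adjusted p = 0.0322). Between BP and NSC the difference was −2.03 ± 0.73 (adjusted p = 0.238), and the BP slope was 0.37 ± 0.22 per day (adjusted p = 1.0), with 0.15 without BP P0 and 0.77 without BP E12.5. Between BP and NSC 67 of 14072 genes, 0.476%, passed (0.0284% higher in BP), and 0 of 30 Wnt pathway genes did (6 at an unadjusted p under 0.05, against 1899 of all 14072 genes); their median was −0.56, against 0.13 over all genes. Tcf7l2 in that comparison was at −2.60 ± 0.76 (adjusted p = 0.155).

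**Figure D5:**
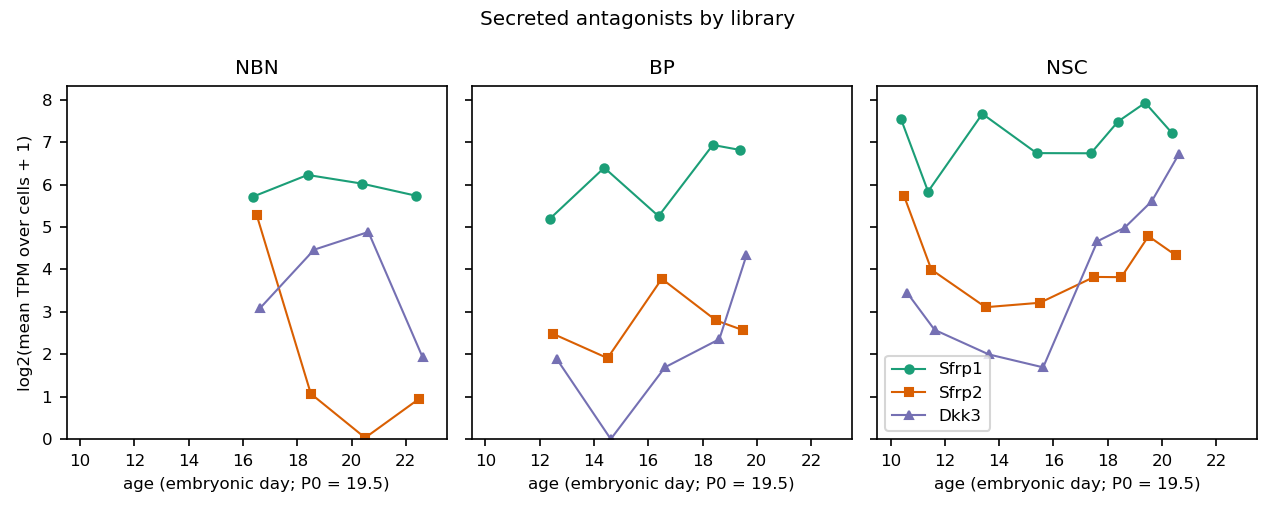
Level of Sfrp1, Sfrp2 and Dkk3 in each library, as log2 of the mean TPM over cells plus 1, against age in days, with NBN, BP and NSC panels from left to right and points shifted slightly sideways; lines join the libraries of a population. Dkk3 in NSC lies at 2.23 TPM at E15.5 and 104 TPM at P1, and Sfrp1 is the highest of the 3 in every library.

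Dkk2 entered the described genes through 1 cell. Its means were 4.19, 173, 4.80 and 1.16 TPM in NBN libraries, 1.92, 2.12, 3.59, 4.38 and 3.4 TPM in BP libraries, and 0.77 (E10.5) to 3.06 TPM (P0) with a median of 2.62 TPM in NSC libraries. In NBN E18.5, 1 cell with 89 genes held 11903 TPM, 98.1% of the level, and without it the mean was 3.37 TPM. Its slope on age in NBN, −0.43 ± 0.29 per day, did not pass, and it turned to 0.04 without NBN P3. Without NBN E16.5 it was −1.58 per day and passed (limma, adjusted p = 0.0261), with the same cell included. Dkk1 was low and widespread, at 1 TPM or more in 74.1% and at 10 TPM in 4.39% of all cells. Sfrp4, chosen after its values were seen, reached 10 TPM in 12 cells, all NSC; in NSC E18.5 and P1 its whole level came from 1 cell each. It differed by −2.82 ± 0.72 between NBN and NSC (limma, adjusted p = 0.0533) and by −2.38 ± 0.60 between BP and NSC (adjusted p = 0.0934). Its mean was at most 0.08 TPM in BP and 0.05 TPM in NBN libraries, so Sfrp4 passed the filter through NSC libraries alone. The direction of both differences was thus fixed by how the gene entered the test, and they are no support for a difference. Dkk4 and Sfrp5 were below the filter; Sfrp5 stood at 23.2 TPM in NSC P0 from 1 cell of 1112 TPM. The share of cells with no antagonist at 10 TPM was 52.4% in NBN, 55.5% in BP and 37.9% in NSC, and it was low in NSC E10.5 (11 of 88 cells) and NSC P0 (8 of 48 cells).

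The time courses held other Tcf7l2 values that did not pass. Its slope was 0.56 ± 0.26 log2 units per day in NBN and 0.51 ± 0.20 in BP, and the BP slope exceeded the NSC slope by 0.51 ± 0.24 per day (limma, adjusted p = 1.0 for the last pair). The NBN slope was 0.14 without NBN P3 and 1.07 without NBN E16.5. From E16.5 on the BP slope was −0.60 per day, so its direction rests on the libraries at E12.5 and E14.5. The fit from E16.5 on starts at BP E16.5, where the cell of few genes given above held most of the summed level. The part of that cell in the −0.60 was not tested. Between slopes of BP and NSC, 1 of 14072 genes, 0.00711%, passed and 0 of 30 Wnt pathway genes did (2 at an unadjusted p under 0.05, against 3.95% of all genes); for BP slopes 0 genes, 0%, passed, with 512 of all genes and 1 Wnt pathway gene at an unadjusted p under 0.05. For Tcf7l1 the BP slope exceeded the NSC slope by 0.39 ± 0.19, and for Fzd8 by 0.27 ± 0.19.

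Other genes of the pathway, a list of 61 that holds the secretion and R-spondin system, further inhibitors, planar polarity genes, the cytoplasmic complex, nuclear partners and targets, were counted in the same fits. Of these, 52 were tested, and 0 passed in any of the 7 comparisons, higher or lower. Between NBN and NSC 11 had an unadjusted p under 0.05, which is 11 of 52 against 15.7% of all genes; the smallest adjusted p was 0.0620. Their median was −0.07 in that comparison, 0.38 between BP and NSC and −0.39 between NBN and BP, against −0.10, 0.13 and −0.23 over all genes. For NBN slopes 18 of 52 had an unadjusted p under 0.05, against 19.7% of all genes. Among the 6 groups of the list, the nuclear partners (the Bcl9, Pygo, Tle and Ctbp genes), singled out after their values were seen, had negative NBN slopes in 10 of 10, −0.66 to −0.18 per day, where 32.5% of all genes had positive ones. The last NBN library, P3, is the one with 35 of 40 cells carrying markers of another type. The slopes of these 10 genes without it are not given here, so its part in them is not shown.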

How the data were processed

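Cells were captured on Fluidigm C1 arrays and sequenced singly, per the labels' protocols. What was deposited is TPM for every gene of every cell. Per the submitters' processing notes kallisto 0.43.0 was used; GRCm38.p2 and mm10 are the builds given there. In 7 deposited columns, from near-empty cells, all values are whole numbers, and these score values, as deposited, carry no stated scaling and entered as if TPM. Because TPM does not preserve depth, precision is given by the 39 to 89 cells per library and by exact Clopper-Pearson intervals at 95%, which cover counting error only.

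Each library entered as log2 of 1 plus the TPM averaged over cells. Labels name no animals, so p-values measure the spread between libraries, which may be technical, and fold changes on this scale understate those of low genes. Linear models were fitted to all 14072 tested genes with limma 3.58.1 in R 4.3.3 (eBayes with a trend, two-sided, Benjamini-Hochberg, threshold 0.05). Population contrasts had age as a covariate; slopes were fitted for each population. Age is the embryonic day, with P0, P1 and P3 at 19.5, 20.5 and 22.5. Python 3.11.15, NumPy 2.4.6, pandas 2.3.3, SciPy 1.17.1 and matplotlib 3.10.9 made the shares and plots.

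A cell was of neuron profile where its mean log2(TPM + 1) over a newborn neuron list exceeded that over a radial glia list. Values in every library are given for genes called in a comparison or at a mean of 10 TPM or more, with estimates where called or past 2 log2 units or 0.25 per day; genes given otherwise were chosen after their values were seen. The genes, lists and rules were chosen with earlier results of these data known. All 46 gene IDs matched GENCODE M21, and 10 genes shared exon sequence with another gene. Doublets were not called. Alternatives changed the pseudocount, filter, averaging, scaling, cells, age term and libraries.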

Additional observations from a re-analysis of the deposited data

Results flagged for a closer look

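Over the 15 genes described in every library, 45 groups (each gene in NBN, BP and NSC) were searched for a library far from the others, and 1 was found; chance flags about 1 in 20. Lef1 in NSC E18.5 was at 2.72 TPM, while the other NSC libraries held 16.6 to 47.4 TPM, a gap of 0.606 of the whole range on the log2 scale. In that library 56.4% of the level came from 1 cell, and 1.20 TPM remained without it.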

How the results depend on the processing

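No paired analysis was possible because the replicate numbers in the labels number cells, while the libraries compared carry none. Some stages are shared by libraries of different populations, and stage was fitted as a factor in place of age. Tcf7l2 between NBN and NSC was then −4.999 ± 0.53 (limma, adjusted p = 0.0143). Only E18.5 and P1 hold both NBN and NSC libraries, and the fit leaves few libraries to measure the spread. Its smaller error is therefore no firmer support than that of the main fit. Of 31 alternatives (30 for slopes), the count of Wnt pathway genes called stayed at 0 between NBN and BP, for BP slopes and for the difference of slopes. With 1 library left out at a time it ran from 0 to 1 between BP and NSC, from 0 to 3 between NBN and NSC, from 0 to 1 for NSC slopes and from 0 to 2 for NBN slopes.

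Between BP and NSC it was 1 with a pseudocount of 0.1, 4 without neuron profile NSC cells and 4 without NSC E15.5 and NBN P3 together. Between NBN and NSC it was 2 with a pseudocount of 0.1, 0 with the mean of log2 values, 2 without cells carrying markers of another type, 4 without neuron profile NSC cells, 3 without the highest cell of each gene and 3 without NSC E15.5 and NBN P3 together. For NSC slopes it was 1 with a pseudocount of 10, 4 with the mean of log2 values and 1 without neuron profile NSC cells. For NBN slopes it was 1 with a pseudocount of 0.1, with no filter, with a filter at 5 TPM, with the mean of log2 values, without cells under 1000 genes and without the highest cell, and 6 without cells carrying markers of another type (5 cells were left in NBN P3). The shares over all genes under these alternatives, and with 1 library left out, are not given here. These counts are therefore no result about the Wnt pathway genes. The count of 7 by cell profile was 2 by share of cells at 10 TPM (all genes 3.66%) and 4 without the highest cell (2.73%). It was 5 with the mean of log2 values (5.1%) and 7 without cells under 1000 genes (3.61%). It was 9 without cells carrying markers of another type (5.57%, 5 libraries) and 9 with at least 10 cells of each profile (10.4%, 4 libraries). The settings without the highest cell or without NSC E15.5 and NBN P3 together, and those of the count by cell profile, were chosen after seeing the data.

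Tcf7l2 between NBN and NSC kept its direction under all 31 alternatives and its call under 22 (adjusted p 0.00565 to 0.283). Signs turned from E16.5 on for the BP slopes of Wnt7b (0.0815) and Tcf7l2 (−0.60) and for the BP slope minus the NSC slope of Tcf7l2 (−1.46) and Fzd8 (−0.87). For Tcf7l2 these BP slopes start at BP E16.5, where a cell of few genes held most of the summed level. The NBN slope of Dkk2 was −1.58 to 0.0400 with 1 library left out; the sign turned without NBN P3, alone or with NSC E15.5 (0.0400). The pathway list of 61 genes had up to 18 called, for NBN slopes without cells carrying markers of another type. The share over all genes in that setting is not given here, so this count is no result about the list. The causes were not tested. With a detection limit of 10 TPM in place of 1, 48 of 57 shares of cells moved beyond their interval; without cells under 1000 genes 1 did. Unknown depth limits what a share at 0 can show.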
